A study of Mus musculus with 16 samples.

Results

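The kallikrein and Wfdc genes were taken as all protein-coding mouse genes whose symbol begins with Klk followed by a digit or b, or with Wfdc followed by a digit. The rule gave 45 genes of 21887, of which 27 were Klk genes and 18 were Wfdc genes. The set was chosen by symbol with the H3K27me3 and H3K4me3 peaks of these same lists already known, so all the counts are descriptions, made without a test. The genes lay in 3 clusters and at 2 single positions. A cluster of 26 Klk genes spanned chr7:43680880-44229622, 548.7 kb with no other protein-coding gene inside. A cluster of 14 Wfdc genes spanned chr2:164176325-164745994, 569.7 kb with 18 other protein-coding genes inside. A smaller cluster of 3 Wfdc genes spanned chr11:83704056-83752646, 48.6 kb. Klkb1 stood alone at chr8:45266688-45294835 and Wfdc1 at chr8:119666365-119688020. All coordinates are those of mm10.

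The data came from muscle stem cells of skeletal muscle of C57BL/6 mice in an activated state (ASC) and a quiescent state (QSC). ChIP-seq of H3K27me3 and of H3K4me3 was made in each state with 2 replicates, each with its own input, giving 8 immunoprecipitated and 8 input samples. Each state and mark had 1 narrow and 1 broad peak list that the labels give for both replicates, so no value below has a replicate error and no difference between ASC and QSC could be set against one. Sequencing depth is unknown from the peak lists, the labels do not state how the cells were isolated or activated, and the age of the mice is not given there. All 9 markers of satellite cells, the stem cells of muscle, carried H3K4me3 in ASC and in QSC, against 1 in ASC and 0 in QSC of 4 immune markers. H3K4me3 was also called at 2 in ASC and 2 in QSC of 4 endothelial markers, at 2 and 1 of 4 fibro-adipogenic markers, and at 2 and 1 of 5 epithelial markers. Over all protein-coding genes H3K4me3 was called at 55.7% in ASC and 53.0% in QSC. Of the satellite cell markers, Calcr and Chrdl2 had an H3K27me3 broad call in ASC, and Cdh15 and Chrdl2 a narrow call. None of them had either call in QSC.

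Kallikreins are secreted serine proteases, known mostly from epithelia, skin, salivary glands and the nervous system. Klk1, tissue kallikrein, releases kinins from kininogen, and its mouse-specific relatives, the Klk1b genes, are known mainly from the submandibular gland. Klkb1 encodes plasma kallikrein, a liver protein that shares the name and not the gene family. Wfdc genes encode small secreted proteins with a WAP disulfide core, several of which inhibit serine proteases or kill bacteria in epithelia and the male reproductive tract. H3K27me3 is laid down by Polycomb repressive complex 2 over silent developmental and tissue-restricted genes, whereas H3K4me3 marks the starts of genes that are active or held ready, and the 2 marks found together at 1 start are called bivalent.

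The 300 bases at the start of a gene (250 before and 50 after, from RefSeq, GRCm38.p6) were available for 41 of the 45 genes, all but Wfdc21, Wfdc5, Wfdc13 and Wfdc1. Polycomb and H3K4me3 in mammals are both known for stretches rich in CG dinucleotides, so 5 of these starts are shown with each CG in capitals. Klk8 and Wfdc2 held the most, and the start of Klk9, next to Klk8, is given for contrast. Klk1b5 and Klk1 stand for the CG-poor array at the end of the chromosome 7 cluster. All 5 lie on the plus strand.
Klk8, chr7:43797327-43797626: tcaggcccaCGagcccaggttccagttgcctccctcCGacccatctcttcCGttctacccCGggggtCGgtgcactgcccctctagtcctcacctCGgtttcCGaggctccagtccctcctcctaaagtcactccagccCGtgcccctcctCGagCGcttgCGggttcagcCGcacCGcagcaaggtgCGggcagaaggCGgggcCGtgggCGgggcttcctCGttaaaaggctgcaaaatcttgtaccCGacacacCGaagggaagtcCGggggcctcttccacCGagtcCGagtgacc
Klk9, chr7:43791641-43791940: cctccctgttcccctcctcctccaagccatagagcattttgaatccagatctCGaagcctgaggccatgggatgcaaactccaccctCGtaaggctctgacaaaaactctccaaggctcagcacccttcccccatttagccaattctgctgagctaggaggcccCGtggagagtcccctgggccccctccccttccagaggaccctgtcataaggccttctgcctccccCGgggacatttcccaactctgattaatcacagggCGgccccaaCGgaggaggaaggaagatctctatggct
Wfdc2, chr2:164562465-164562764: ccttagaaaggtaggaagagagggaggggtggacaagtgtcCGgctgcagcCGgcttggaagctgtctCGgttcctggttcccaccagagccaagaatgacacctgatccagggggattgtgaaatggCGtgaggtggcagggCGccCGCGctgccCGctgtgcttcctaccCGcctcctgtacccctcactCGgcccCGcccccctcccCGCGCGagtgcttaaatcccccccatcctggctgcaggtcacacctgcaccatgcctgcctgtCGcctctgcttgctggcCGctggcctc
Klk1b5, chr7:44216224-44216523: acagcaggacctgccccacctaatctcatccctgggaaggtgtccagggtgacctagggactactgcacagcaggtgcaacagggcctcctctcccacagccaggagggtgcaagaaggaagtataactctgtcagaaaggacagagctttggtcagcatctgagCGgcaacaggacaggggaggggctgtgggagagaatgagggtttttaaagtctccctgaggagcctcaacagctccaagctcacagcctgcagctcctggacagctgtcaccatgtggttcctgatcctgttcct
Klk1, chr7:44225110-44225409: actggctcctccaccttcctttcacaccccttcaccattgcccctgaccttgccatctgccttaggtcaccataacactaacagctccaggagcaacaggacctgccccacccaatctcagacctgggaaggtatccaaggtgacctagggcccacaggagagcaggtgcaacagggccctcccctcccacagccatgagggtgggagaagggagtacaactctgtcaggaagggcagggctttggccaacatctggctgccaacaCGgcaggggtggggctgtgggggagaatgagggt

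Klk8 held 23 CG dinucleotides and Wfdc2 held 16, against 6 in Klk9, 1 in Klk1b5 and 1 in Klk1. The median was 3 over the 41 genes and 13 over 17492 protein-coding genes with a start in the same table. More than 10 CG dinucleotides were found in 2 of the 41 genes (4.88%) and in 55.2% of all genes. Klk8 stood above 71.1% of all starts and Wfdc2 above 54.8%, so neither was extreme across the genome. Within the chromosome 7 cluster the median was 1.5 over Klk1 and the 13 Klk1b genes, with at most 3 in any of them, and 4 over the 12 genes from Klk14 to Klk15. The letters TATAAA, searched on both strands, occurred in 4 of the 41 starts (9.76%), those of Wfdc17, Wfdc18, Klk15 and Klkb1, and in 13.3% of all starts.

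**Figure D1:**
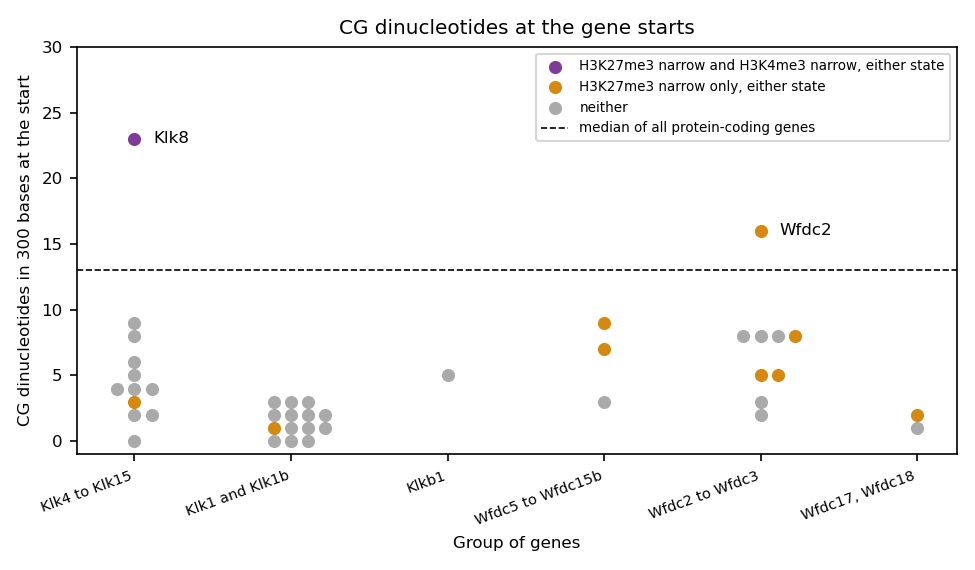
CG dinucleotides in the 300 bases at the start of each of 41 genes (vertical axis, count), 1 point per gene, by group of genes along the horizontal axis, coloured by the peaks that overlap those 300 bases in ASC or QSC. Klk8 at 23 is the single gene with both marks, Wfdc2 at 16 has H3K27me3 narrow peaks, and all others lie below the median of all protein-coding genes, 13 (dashed line).

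Windows were laid 1 kb to either side of both ends of each gene record. A gene counted as called in the H3K27me3 broad list when peaks took up 500 bp or more of a window, and in either narrow list when a peak reached 1 bp or more of it. By that rule 42 of the 45 genes lay under H3K27me3 broad peaks in ASC and 34 in QSC. The same call was made for 34.3% of all protein-coding genes in ASC and 30.5% in QSC. The counts depended on weak peaks. With peaks of a −log10 q from 1.3 up, 20 genes were called in ASC and 5 in QSC, against 18.0% and 10.8% of all genes. With a fold from 3 up, 10 were called in ASC and 2 in QSC, against 6.95% and 4.42%. Under both limits the share of the 45 genes in QSC was near that of all genes. All 34 genes called in QSC were called in ASC, 8 were called in ASC only (7.5% of all genes) and 0 in QSC only (3.68%). Klk1b1, Klk1b11 and Klk1b26 were called in neither. A whole window of 2001 bp was covered in 35 genes in ASC and 25 in QSC, against 23.8% and 19.0% of all genes. The whole gene record lay under broad peaks in 21 genes in ASC and 12 in QSC, against 7.1% and 4.86% of all genes. Broad peaks covered a median of 88.7% of a record in ASC and 60.4% in QSC, where the median over all protein-coding genes was 0 in both.

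H3K27me3 narrow peaks, which mark the more sharply enriched stretches, were called at fewer of the genes. They touched 23 of the 45 genes in ASC and 12 in QSC, against 18.6% and 12.2% of all genes. All of these also had a broad call, so narrow peaks were found at 23 of 42 broad-called genes in ASC and 12 of 34 in QSC, against 53.2% and 39.7% of all broad-called genes. In ASC only were 11 genes (7.65% of all genes): Wfdc17, Wfdc15a, Wfdc6a, Wfdc8, Wfdc6b, Wfdc16, Wfdc9, Wfdc11, Klk12, Klk4 and Klk1. None was called in QSC only (1.29%), and 22 were called in neither state. The lists themselves differed in size, covering 3.25% of the chromosomes in ASC and 1.98% in QSC. With the ASC list cut by fold to the bases covered in QSC, 13 genes were called in ASC, against 12 in QSC, and 13.4% of all genes in ASC, against 12.2% in QSC. In that comparison Wfdc17, Wfdc6a, Wfdc8 and Wfdc6b were called in ASC alone, and Wfdc12, Wfdc10 and Wfdc1 in QSC alone. The share of all genes called in a single state was not computed under this cut. Klk9 and Klk8 were then the sole Klk genes with a narrow call, in both states. The broad calls moved less under the same cut, to 40 genes in ASC against 34 in QSC, with 32.1% of all genes called in ASC, against 30.5% in QSC.

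Genes in a cluster are not independent of each other, since 1 peak can span several and some windows overlap. Wfdc8 and Wfdc6b share an end, as do Wfdc9 and Wfdc10, and the end of Klk9 lies within 1 kb of the start of Klk8. Taking a window at the listed start of the 41 genes alone gave 33 genes with a broad call in ASC and 26 in QSC, against 27.8% and 22.6% of all starts. At the start, 9 genes were called in ASC only: Klk12, Klk7, Klk5, Klk15, Klk1b8, Klk1b27, Klk1b22, Klk1b24 and Klk1b4. Klk14 and Klk1b16 were called there in QSC only. Narrow peaks touched 14 of these starts in ASC and 6 in QSC, against 15.2% and 9.58% of all starts, with Wfdc12 and Wfdc10 in QSC only. The share of all starts called in a single state was not computed for either list. All 14 Wfdc genes with a listed start had a broad call there in both states, against 19 of 27 Klk genes in ASC and 12 of 27 in QSC.

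**Figure D2:**
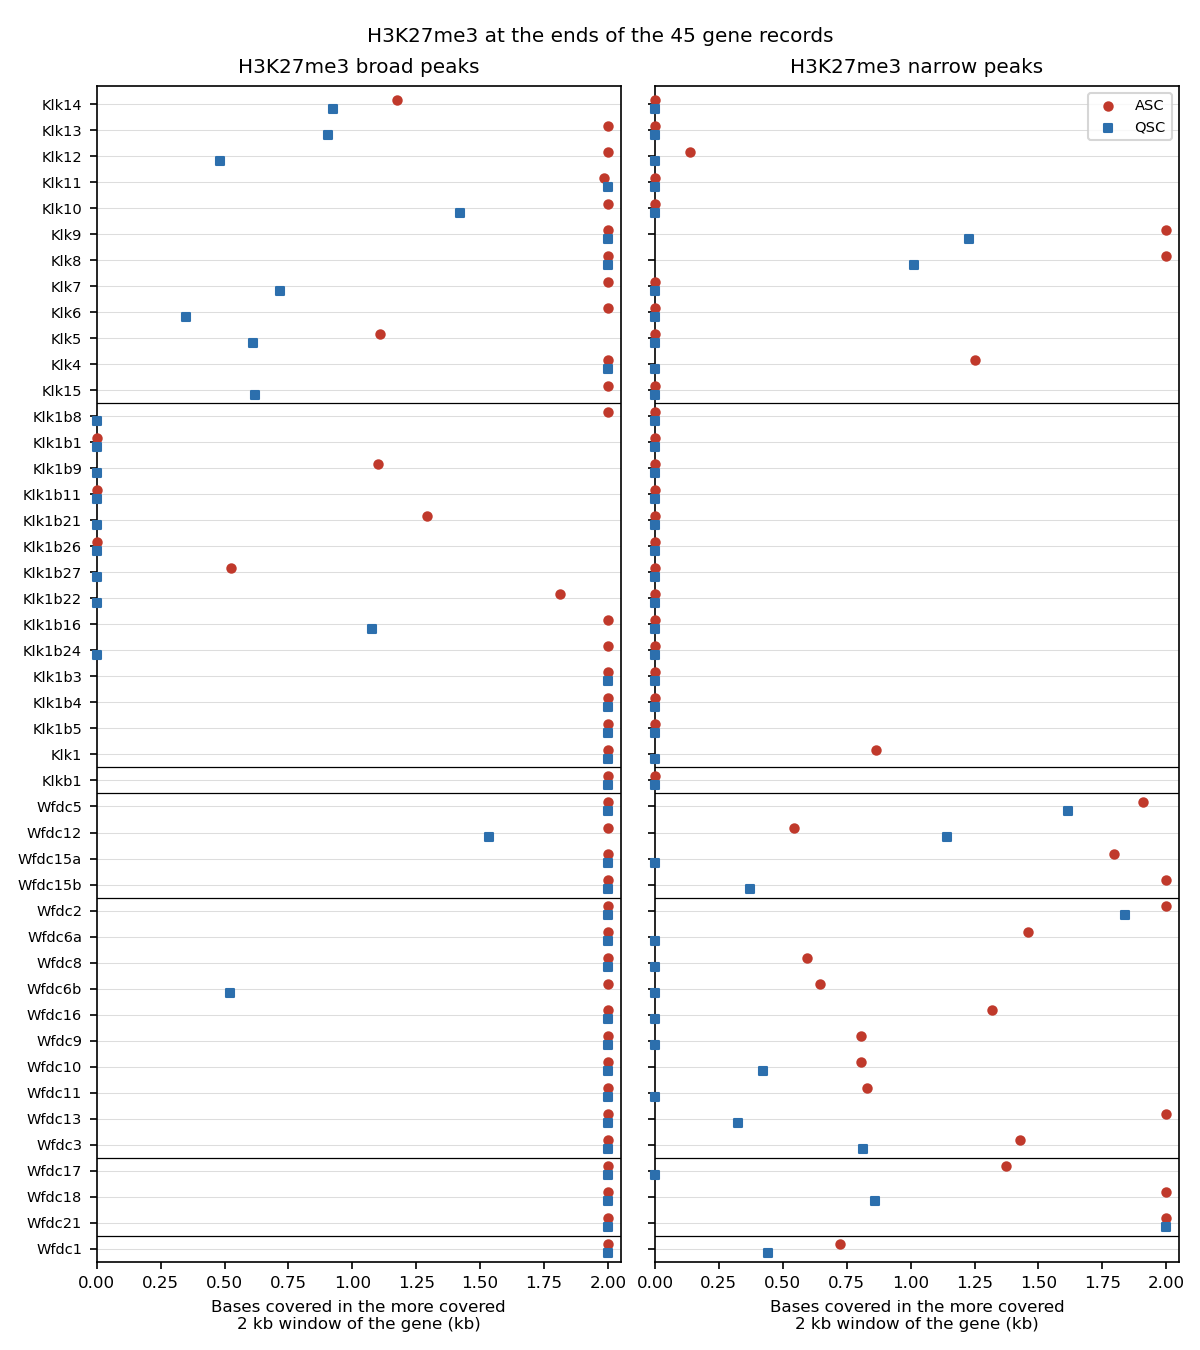
Bases of the more covered 2 kb window of each gene record (horizontal axis, kb) under H3K27me3 broad peaks (left) and narrow peaks (right) in ASC (circles) and QSC (squares) for the 45 genes, ordered by position in each group. For broad peaks the Wfdc genes sit at the full window in both states, except Wfdc12 and Wfdc6b in QSC, whereas the Klk1b genes from Klk1b8 to Klk1b22 sit at 0 in QSC.

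The chromosome 7 cluster was covered by H3K27me3 broad peaks over 58.3% of its bases in ASC and 26.9% in QSC, the largest difference between the states among the 3 clusters. Broad peaks covered 19.0% of the chromosomes in ASC and 16.7% in QSC. With the ASC list cut to the bases of the QSC list, coverage of the cluster was 54.5% in ASC, against 26.9% in QSC. Of its 26 genes, 23 had a broad call in ASC and 15 in QSC, against 34.3% and 30.5% of all genes. By windows at the record ends, all 8 genes of the whole set called in ASC only (7.5% of all genes) were here. They were Klk12, Klk6, Klk1b8, Klk1b9, Klk1b21, Klk1b27, Klk1b22 and Klk1b24. At the listed starts Klk6 was called in both states, and Klk1b9 and Klk1b21 in neither. The peaks were close in fold to those of the whole lists. Their median fold enrichment over background, the authors' own value per peak, was 1.78 in ASC and 1.84 in QSC, beside 1.72 and 1.90 over the whole lists. A −log10 q of at least 1.3 was reached by 1 of 48 broad peaks in ASC and 0 of 62 in QSC, against 8.51% and 3.85% of the whole lists. That single peak covered Klk9, Klk8 and Klk7. On peaks past this limit alone, 4.81% of the cluster was covered in ASC and 0% in QSC.

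**Figure D3:**
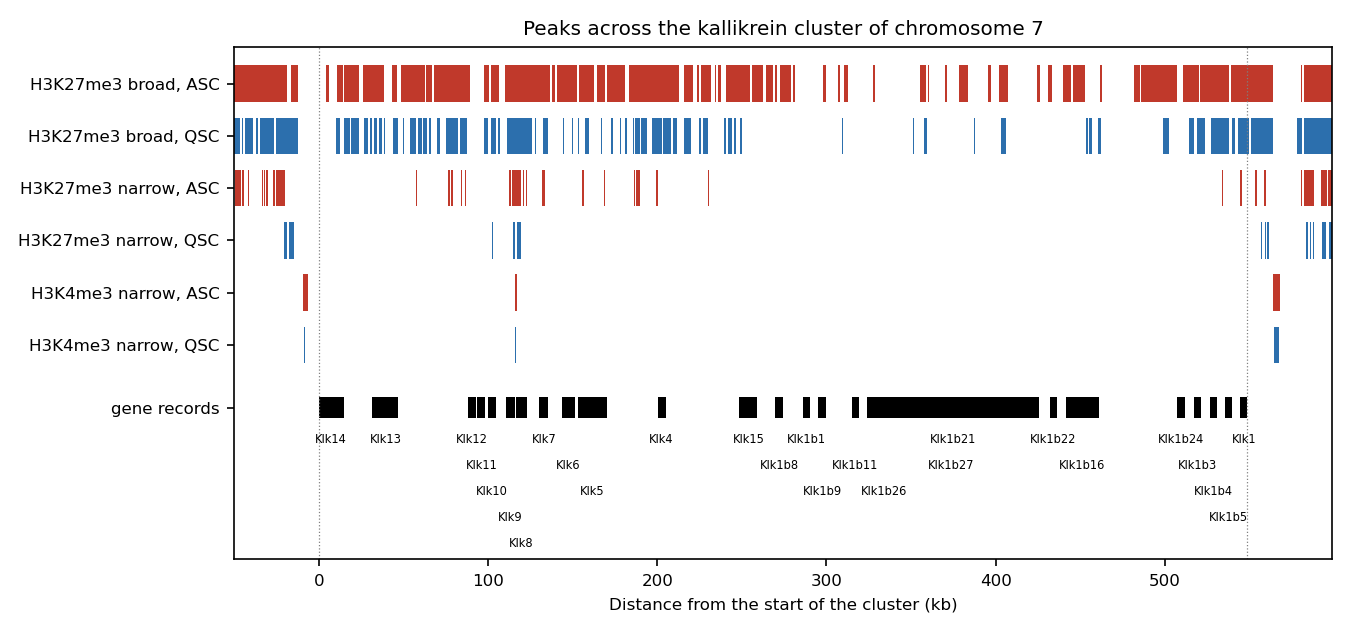
Peaks across the kallikrein cluster of chromosome 7 and 50 kb on either side, as distance from the start of the cluster in kb (horizontal axis), with a row for each mark, list and state and the gene records underneath. Dotted lines mark the ends of the cluster. Broad H3K27me3 thins out in the Klk1b array, most of all in QSC, and the single H3K4me3 peak inside the cluster lies at Klk8.

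The 12 genes at the first part of this cluster, from Klk14 to Klk15, include the skin proteases Klk5 and Klk7, the enamel protease Klk4, and Klk6 and Klk8, known from the nervous system. Broad calls were made for 12 of them in ASC and 10 in QSC, against 34.3% and 30.5% of all genes. Broad peaks covered 78.4% of this 259.2 kb block in ASC and 42.0% in QSC. Klk9 and Klk8 were covered over the full window in both states. Klk7 had 2001 bp of a window covered in ASC and 717 bp in QSC, and 100% of its record in ASC against 50.8% in QSC. Klk6 had 2001 bp in ASC and 348 bp in QSC, below the 500 bp needed. Klk12 likewise had 2001 bp in ASC and 482 bp in QSC, so it fell short in QSC by few bases. Klk5, with 1108 bp in ASC and 613 bp in QSC, and Klk15, with 2001 bp in ASC and 618 bp in QSC, passed in both. Klk13 (2001 bp in ASC, 905 bp in QSC), Klk10 (2001 bp, 1421 bp) and Klk14 (1173 bp, 923 bp) had the same order, whereas Klk11 had 1986 bp in ASC and 2001 bp in QSC.

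Klk4 lay under the longest broad peak of the cluster in ASC, 29341 bp with a fold of 2.04. Its window was covered in full in both states, and 100% of its record in ASC against 81.5% in QSC lay under broad peaks. A narrow peak covered 1253 bp of a Klk4 window in ASC, and none was found there in QSC. Klk12 was touched by a narrow peak over 135 bp in ASC and by none in QSC. Over the whole block, narrow coverage was 7.6% in ASC and 1.43% in QSC.

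Klk8, which encodes the protease neuropsin, carried the one H3K4me3 narrow peak of the whole chromosome 7 cluster. The peak ran over 1217 bp at chr7:43796578-43797794 in ASC, with a fold of 4.88 and a −log10 q of 10.06. In QSC it ran over 771 bp at chr7:43796843-43797613, with a fold of 3.77 and a −log10 q of 4.45. Both contain the Klk8 start at position 43797577 and lie mostly upstream of it, by 999 bp in ASC and 734 bp in QSC. They were weak within their lists, since 88.7% of H3K4me3 narrow peaks in ASC and 95.9% in QSC had a higher fold. H3K27me3 overlapped them in both states. All 1217 bp of the ASC peak lay under an H3K27me3 narrow peak, whereas in QSC 143 bp of the H3K4me3 peak, 18.5%, did, and all of it lay under a broad peak.

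The H3K27me3 narrow peak at this site was 1 stretch of 4986 bp in ASC, with a fold of 5.93 and a −log10 q of 12.88. In QSC the list held 3 separate peaks there, of 1432, 995 and 986 bp with folds of 4.88, 4.02 and 3.44. The H3K4me3 peak of QSC lay largely in the space between the first and the next of them. Of the 300 bases at the Klk8 start printed above, all 300 were under H3K27me3 narrow peaks in ASC and 0 in QSC, and H3K4me3 covered 300 in ASC and 287 in QSC. The broad peak over the site was 26383 bp long in ASC and reached Klk7, against 14758 bp in QSC, where it touched Klk9 and Klk8. Klk9 was called for H3K4me3 in both states through this same peak, at the end of its record that faces Klk8. Its own start, at position 43791891, had no H3K4me3 narrow peak within 1 kb in either state.

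Klk1 and the 13 Klk1b genes fill the other 279.0 kb of the cluster. Several Klk1b products are named after growth factors, such as Klk1b3, a subunit of the nerve growth factor complex, and Klk1b9 and Klk1b22, which bind epidermal growth factor. Broad calls were made for 11 of the 14 genes in ASC and 5 in QSC, against 34.3% and 30.5% of all genes. The share called in QSC, 35.7%, was near that of all genes. Broad peaks covered 39.2% of the bases in ASC and 13.8% in QSC. The 5 genes called in QSC were Klk1b16, with 2001 bp of a window covered in ASC against 1077 bp in QSC, and Klk1b3, Klk1b4, Klk1b5 and Klk1, with full windows in both states. The last 4 are neighbours at the far edge of the cluster, beside flanking sequence that was itself 87.4% covered in ASC and 84.4% in QSC. In the interior, Klk1b8 and Klk1b24 had 2001 bp in ASC and 0 bp in QSC. Klk1b22 had 1813 bp in ASC, Klk1b21 had 1291 bp, Klk1b9 had 1099 bp and Klk1b27 had 526 bp, each against 0 bp in QSC. The long record of Klk1b21 encloses those of Klk1b26 and Klk1b27. The folds behind these 6 ASC calls ran from 1.45 at Klk1b22 to 1.87 at Klk1b24.

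The longest stretch of the cluster without a broad peak was 54.7 kb in QSC, with Klk1b8, Klk1b1 and Klk1b9 wholly inside, and 26.9 kb in ASC, with Klk1b26 inside. Klk1 alone of these 14 genes had an H3K27me3 narrow call, in ASC, over 866 bp of a window, against 0 bp in QSC. It covered 225 of the 300 bases printed above. Narrow peaks took up 0.563% of this block in ASC and 0% in QSC. The Klk1b genes are near copies. The 91 pairs of starts among all 14 genes had a median identity of 80.0% in global alignments, from 47.7% to 91.0%. The median was 50.2% for the pairs from Klk14 to Klk15. Pairs of Klk1 with a Klk1b gene ran from 47.7% with Klk1b8 to 69.0% with Klk1b3 and Klk1b21. Klk1b4 and Klk1b5 reached 91.0%. Reads of 75 bases were used, and Klk1b21, Klk1b24 and Klk1b27 share exact runs of at least 75 bases in their starts, the longest being 178 bases. How far reads could be placed among these copies was not tested. Leaving out all 14 genes gave 31 genes with a broad call in ASC and 29 in QSC, of the remaining 31.

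The chromosome 2 cluster lay almost wholly under H3K27me3 in both states at its Wfdc genes. All 14 had a broad call in ASC and in QSC, and a full window was covered in 14 in ASC and 12 in QSC. Over all genes a broad call was made for 34.3% in ASC and 30.5% in QSC, and a full window was covered in 23.8% and 19.0%. Broad peaks covered 79.6% of the span in ASC and 74.0% in QSC. The genes without a full window in QSC were Wfdc6b, with 2001 bp in ASC and 520 bp in QSC, and Wfdc12, an antibacterial WAP protein, with 2001 bp in ASC and 1533 bp in QSC. The peaks were stronger than in the kallikrein cluster by the authors' q values: 12 of 19 broad peaks in ASC and 9 of 40 in QSC had a −log10 q of at least 1.3, beside the same 8.51% and 3.85% of the whole lists. On those peaks alone, 72.4% of the span was covered in ASC and 22.7% in QSC.

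On the full lists the cluster differed more between the states in its narrow peaks than in its broad peaks. Broad peaks past the q limit also differed, at 72.4% in ASC and 22.7% in QSC. Narrow peaks covered 50.1% of the span in ASC, in 151 peaks, and 11.7% in QSC, in 66 peaks. With the ASC list cut to the bases of the QSC list, 39.4% was covered in ASC, against 11.7% in QSC. Over the whole chromosomes the uncut narrow lists covered 3.25% in ASC and 1.98% in QSC. Narrow calls were made for 14 of 14 genes in ASC and 7 in QSC, against 18.6% and 12.2% of all genes. Under the cut list 8 of the 14 were called in ASC, against 13.4% of all genes: Wfdc5, Wfdc15b, Wfdc2, Wfdc6a, Wfdc8, Wfdc6b, Wfdc13 and Wfdc3.

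**Figure D4:**
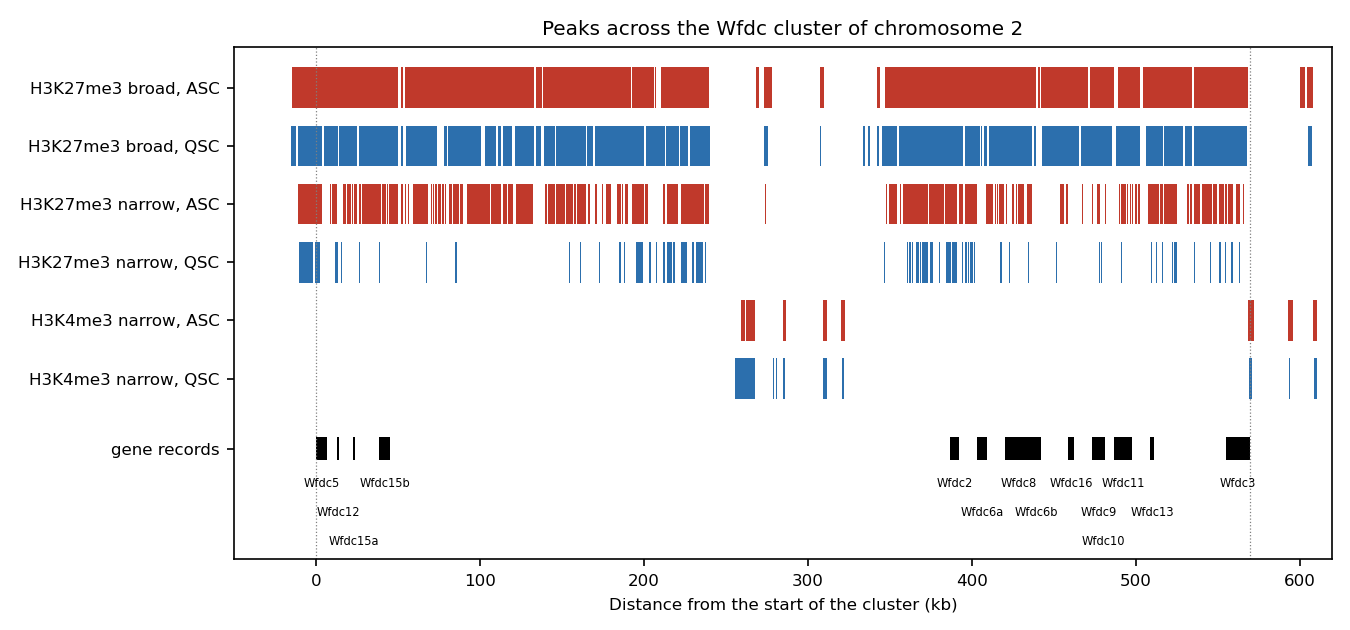
Peaks across the Wfdc cluster of chromosome 2 and 50 kb on either side, as distance from the start of the cluster in kb (horizontal axis), with a row for each mark, list and state and the gene records underneath. Dotted lines mark the ends of the cluster. Both runs of Wfdc genes lie largely under broad H3K27me3 in ASC and QSC. Broad peaks also cover 68.8% of the bases between the runs in ASC and 63.6% in QSC. H3K4me3 peaks occupy the part between the runs where H3K27me3 is nearly missing.

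Of the first 4 genes, from Wfdc5 to Wfdc15b, all lay under 1 broad peak of 64374 bp in ASC, with a fold of 3.45. In QSC several shorter peaks covered 92.8% of these 45.3 kb, the strongest at Wfdc5 with a fold of 4.18. Narrow peaks covered 69.3% of the 45.3 kb in ASC and 13.9% in QSC. Wfdc15b, known as an antibacterial protein of mucosal tissue, had 2001 bp of a window under narrow peaks in ASC and 371 bp in QSC. Wfdc15a had 1795 bp in ASC and 0 bp in QSC, and Wfdc5 had 1909 bp in ASC and 1616 bp in QSC. Wfdc12 had 543 bp in ASC and 1142 bp in QSC, the one gene of the 45 whose more covered window held more narrow peak bases in QSC. Counted over the record, Klk10 and Wfdc21 were also more covered in QSC, Klk10 with 0% in ASC and 6.75% in QSC.

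The other 10 genes, from Wfdc2 to Wfdc3, span 183.3 kb, with broad coverage of 94.7% in ASC and 88.5% in QSC and narrow coverage of 47.8% in ASC and 11.5% in QSC. Wfdc2, whose human counterpart HE4 is used as a marker of ovarian cancer, had the most narrow H3K27me3 of this run in QSC. Its narrow peak was 7357 bp long with a fold of 7.64 in ASC and 3229 bp long with a fold of 6.6 in QSC. All 300 bases of its start, the CG-rich one printed above, lay under H3K27me3 narrow peaks in ASC and in QSC, and none under H3K4me3. In ASC the broad peak here was 92248 bp long, with a fold of 3.28, and took in Wfdc2, Wfdc6a, Wfdc8 and Wfdc6b. In QSC the longest broad peak of the cluster was 38738 bp long and touched Wfdc2 alone of the Wfdc genes.

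The remaining genes of this run are less well characterised. Windows under narrow peaks held 1461 bp at Wfdc6a, 1320 bp at Wfdc16, 829 bp at Wfdc11, 805 bp at Wfdc9, 645 bp at Wfdc6b and 594 bp at Wfdc8 in ASC, with 0 bp at each of the 6 in QSC. At the listed start of Wfdc9, which lies inside its record, the order was the other way, with 280 bp in ASC and 858 bp in QSC. Of the 300 bases there, 0 lay under narrow peaks in ASC and 180 in QSC. Wfdc10 had 805 bp in ASC and 421 bp in QSC at its record ends, and 0 bp in ASC and 421 bp in QSC at its start. Wfdc13 had 2001 bp in ASC and 326 bp in QSC, and Wfdc3 had 1426 bp in ASC and 815 bp in QSC. All 9 had broad peaks over at least 520 bp of a window in both states.

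Among the 18 other genes inside the chromosome 2 cluster, 13 had a broad call in ASC and 13 in QSC, and narrow calls numbered 13 in ASC and 5 in QSC. Over all genes, broad calls were made for 34.3% in ASC and 30.5% in QSC, and narrow calls for 18.6% and 12.2%. The 18 genes include the seminal vesicle secretory genes Svs2, Svs3a, Svs3b, Svs4, Svs5 and Svs6, each with a narrow call in ASC and not in QSC (7.65% of all genes). Slpi, an inhibitor of leukocyte elastase with WAP domains, had the same pattern. The other 5, Sdc4, Sys1, Trp53tg5, Dbndd2 and Pigt, had no H3K27me3 call in either state, although broad peaks covered 10.7% of the Dbndd2 record in ASC and 1.69% in QSC. Sdc4 encodes syndecan-4, a surface proteoglycan of satellite cells, and had H3K4me3 peaks with a fold of 37.75 over 5758 bp in ASC and 23.74 over 10668 bp in QSC. In the 200 kb on either side of the cluster, 4 of 19 genes had an H3K27me3 broad call in ASC and 4 in QSC, whereas 13 had H3K4me3 in ASC and 13 in QSC. The shares of all genes were 34.3% and 30.5% for broad calls, and 55.7% and 53.0% for H3K4me3.

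Only 4 of the 45 genes had an H3K4me3 narrow call, in ASC and in QSC, namely Klk8, Klk9, Wfdc3 and Wfdc21. The call was made for 55.7% of all protein-coding genes in ASC and 53.0% in QSC. None of the 45 was called in ASC only (3.54% of all genes) or in QSC only (0.777%). The peaks counted at Wfdc3 and Wfdc21 cover the record starts of other genes. The Wfdc3 record ends 21 bp from that of Dnttip1, and the peak there, 3241 bp with a fold of 24.56 in ASC and 2215 bp with a fold of 10.16 in QSC, begins 1711 bp from the listed Wfdc3 start in ASC and 1830 bp from it in QSC. At Wfdc21 the peak lies beyond the record, by 473 bp in ASC and 706 bp in QSC, over the record start of Heatr6. Neither peak shared a base with H3K27me3 broad or narrow peaks. At listed starts alone Klk8 was the 1 gene of 41 with H3K4me3 in ASC and in QSC, against 57.7% and 55.3% of all starts. The QSC calls of Klk8 and Klk9 rest on the peak with a −log10 q of 4.45, and both are lost when 5 is required.

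The chromosome 11 cluster holds Wfdc17, known from activated macrophages and microglia, Wfdc18, known from the involuting mammary gland, and Wfdc21. All 3 had full windows under broad peaks in both states, against 23.8% of all genes in ASC and 19.0% in QSC. Broad peaks covered 93.5% of the span in ASC and 97.4% in QSC. Over the chromosomes they covered 19.0% in ASC and 16.7% in QSC. Wfdc17 and Wfdc18 lay in a broad peak of 159752 bp in ASC, with a fold of 2.56, which also took in the chemokine genes Ccl9, Ccl6, Ccl3 and Ccl4. In ASC 0.0209% of broad peaks were longer. In QSC the broad peak over both genes was 66412 bp long, with a fold of 2.19, and reached Ccl4. Windows under narrow peaks held 1372 bp at Wfdc17 in ASC and 0 bp in QSC, and 2001 bp at Wfdc18 in ASC and 859 bp in QSC.

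Wfdc21 had the highest fold of the 45 genes in the H3K27me3 narrow list of each state. Its narrow peaks covered a full window in both states and 98.1% of the record in ASC and 98.4% in QSC. The peak in ASC was 9832 bp long with a fold of 9.12. In QSC peaks of 7486 and 2615 bp had folds of 8.9 and 11.19, and 0.0613% of the QSC narrow list had a fold above 11.19. The broad peak at Wfdc21 was 23301 bp long with a fold of 4.09 in ASC and 27276 bp long with a fold of 4.17 in QSC. The H3K27me3 there stops before the H3K4me3 peak of Heatr6 in both states.

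The 2 single genes had an H3K27me3 broad call and no H3K4me3 narrow call in both states. Klkb1 had 68.7% of its record under broad peaks in ASC and 58.4% in QSC, with no narrow peak at its windows in either state. Its broad peaks were weak, with a −log10 q of at most 0.97 in ASC and 1.05 in QSC. F11, its neighbour, which encodes coagulation factor XI, also had a broad call in both. Wfdc1, known from prostate stroma, had 58.3% of its record under broad peaks in ASC and 62.0% in QSC, with 723 bp of a window under narrow peaks in ASC, against 442 bp in QSC.

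Set against their surroundings and taken as whole spans, the 2 large clusters were arranged in opposite ways. The chromosome 2 cluster, at 79.6% in ASC and 74.0% in QSC, stood above the 200 kb before it (13.1% in ASC, 13.6% in QSC) and after it (29.2% in ASC, 22.5% in QSC). The kallikrein cluster, at 58.3% in ASC and 26.9% in QSC, was below the 200 kb before it (72.7% in ASC, 61.2% in QSC) and after it (87.4% in ASC, 84.4% in QSC). Its first part, from Klk14 to Klk15, was at 78.4% in ASC, above the 72.7% before the cluster, and at 42.0% in QSC. Klk1 and the Klk1b genes, for which read placement was not tested, were at 39.2% in ASC and 13.8% in QSC. Narrow coverage of the whole kallikrein cluster, 3.87% in ASC and 0.676% in QSC, was also below that of the flanks. The flanks had 33.3% before and 49.6% after in ASC, and 4.16% before and 40.0% after in QSC. The chromosome 11 cluster was above its flanks in both lists and both states.

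**Figure D5:**
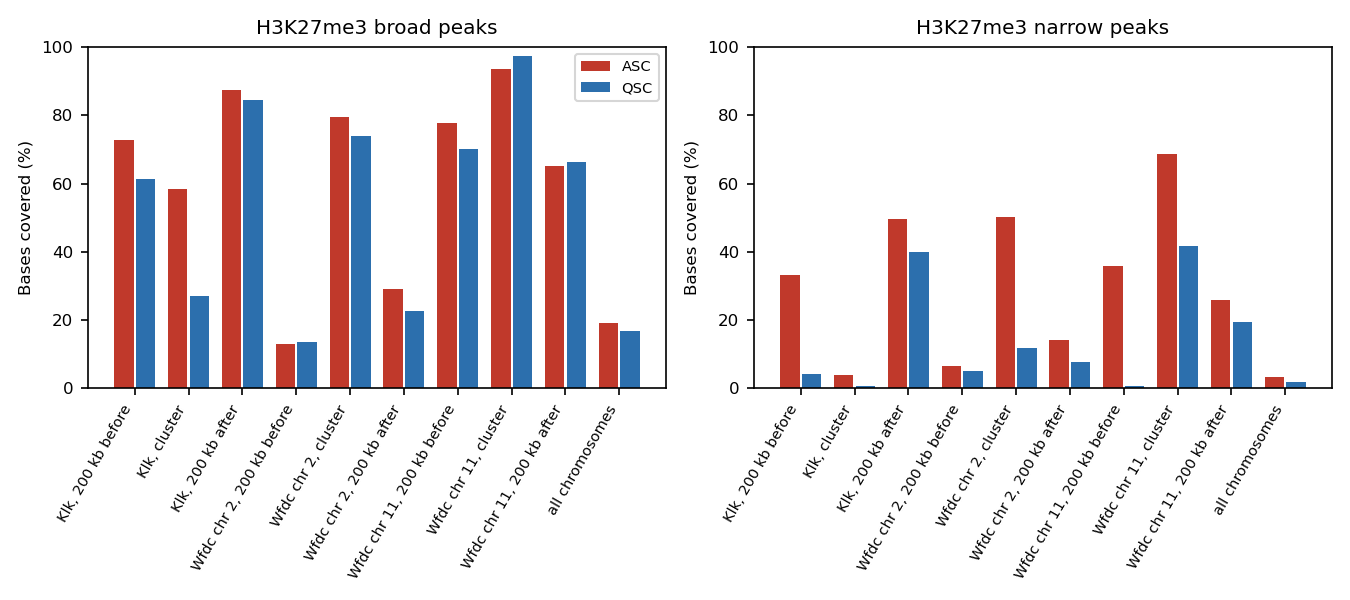
Share of bases under H3K27me3 broad peaks (left) and narrow peaks (right), in percent, for the 3 clusters, the 200 kb on each side of them and all chromosomes, with ASC and QSC bars side by side. The chromosome 2 cluster stands above its flanks and the kallikrein cluster, taken as a whole, below its own in both states.

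Genes that act with these families were counted by lists. Of 7 other genes for WAP or Kunitz-type inhibitors (Wap, Slpi, Eppin, Wfikkn1, Wfikkn2, Spint3 and Spint4), 6 had a broad H3K27me3 call in ASC and 6 in QSC, and 4 had a narrow call in ASC and 4 in QSC. Over all genes, broad calls were made for 34.3% in ASC and 30.5% in QSC, and narrow calls for 18.6% and 12.2%. Slpi was called in the narrow list in ASC alone (7.65% of all genes) and Wap, a milk protein, in QSC alone (1.29%). Wfikkn1, which encodes a binder of myostatin, was the exception, with H3K4me3 at a fold of 14.81 in ASC and 13.64 in QSC and no H3K27me3. Slpi, Eppin, Spint3 and Spint4 lie inside the chromosome 2 cluster.

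Of 11 genes of the plasma kallikrein and kinin system, 9 had a broad call in ASC and 8 in QSC. The same call was made for 34.3% of all genes in ASC and 30.5% in QSC. Ace, the kinin-degrading converting enzyme, was called in ASC alone (7.5% of all genes). Narrow calls were made for 3 in ASC and 3 in QSC, against 18.6% and 12.2% of all genes. They included Kng1, a kininogen, in ASC alone (7.65% of all genes) and Bdkrb2, a kinin receptor, in QSC alone (1.29%). H3K4me3 was called at 4 genes in ASC and 4 in QSC, against 55.7% and 53.0% of all genes. Serping1, the C1 inhibitor, had a fold of 5.18 in ASC and 15.48 in QSC, and Ace and Mme, another kinin-degrading peptidase, were called in both. Bdkrb2 was called for H3K4me3 in ASC alone (3.54% of all genes), and Bdkrb1, the other kinin receptor, in QSC alone (0.777%).

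Of 13 partners of tissue kallikreins in epithelia, 12 had a broad call in ASC and 11 in QSC, and 9 had a narrow call in ASC and 5 in QSC. Over all genes, broad calls were made for 34.3% in ASC and 30.5% in QSC, and narrow calls for 18.6% and 12.2%. Calls in ASC alone were made for 7.5% of all genes in the broad list and 7.65% in the narrow list. Cdsn, a skin adhesion protein cleaved by kallikreins, had a broad call in ASC alone. F2rl1, a protease-activated receptor, the transglutaminases Tgm1 and Tgm3, and Serpina3n, a protease inhibitor, had a narrow call in ASC alone. H3K4me3 was called at 4 of the 13 in ASC and 3 in QSC, against 55.7% and 53.0% of all genes. St14, the protease matriptase, Spint2, an inhibitor of it, and F2rl1 were called in both states. Spint1, a further inhibitor, was called in ASC alone (3.54% of all genes) with a fold of 11.92.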

How the data were processed

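The files used were 8 lists of peaks on mm10, narrow and broad, by state and mark. Per peak, the authors deposited a fold enrichment, which is a ratio on a linear scale, and a −log10 q-value. Per the labels' protocols, antibody-bound DNA was tagmented and sequenced as 2 reads of 75 bases. The submitters' processing notes name MACS2 2.1.1, Bowtie2 2.3.2 and bedtools 2.26.0 among other tools, with no settings. The labels give 1 list for both replicates of a group, so the lists were treated as pooled. A fold describes a peak within its own list and measures no change between lists.

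The genes and lists were chosen with earlier results of these data known. Gene records came from the RefSeq table of GRCm38.p6 (coordinates as in mm10), on the autosomes, X and Y. The table gives no strand, so windows were placed at both record ends. The 11 other annotated genes that match the symbols, which are not protein-coding, were left out. Genes of the set were joined into clusters over gaps of up to 500 kb, and chromosome lengths were taken as the last coordinate in the annotation or the peak lists. Start sites, strands and sequences came from RefSeq promoters, for 41 of the 45 genes. Identity was counted over the 300 bases in global alignments with Biopython 1.88. Coverage was computed in Python 3.11.15 with pandas 2.3.3 and numpy 2.4.6, and the code was tested on simulated data. The genes named were those with H3K4me3, those whose calls differed between states, those with most H3K27me3 in each cluster and those of the longest peaks. Values of the other Klk and Wfdc genes account for the whole set, and genes such as the Svs genes were named after their values were seen. The signal tracks and the H3K4me3 broad lists, beyond 1 alternative, were not used here. Alternatives changed the peak thresholds, list lengths, windows, overlaps, gene set and joining gap.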

Additional observations from a re-analysis of the deposited data

How the results depend on the processing

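No list was split by replicate, so leaving out a replicate could not be done. No paired analysis was possible because each list is pooled over both replicates of its group. Counts of the 45 genes follow for H3K27me3 broad calls (42 in ASC, 34 in QSC). Keeping peaks with a −log10 q from 1.3 up gave 20 in ASC and 5 in QSC, and keeping those with a fold from 3 up gave 10 in ASC and 2 in QSC. Narrow calls (23 in ASC, 12 in QSC) were 14 and 6 at the transcription start alone. With equal covered bases, chosen after seeing the data, narrow calls were 13 in ASC and 12 in QSC. H3K4me3 calls (4 in ASC, 4 in QSC) were 1 and 1 at the transcription start. In QSC they were 2 when the −log10 q had to reach 5, with Klk8 and Klk9 lost. They were 12 in QSC by the broad H3K4me3 list, which held 184538 peaks. That list covered 9.36% of the chromosomes, with a median −log10 q of 0.0 per peak. The share of all genes called by it was not computed.

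Coverage of the kallikrein cluster (58.3% in ASC, 26.9% in QSC) was 4.81% in ASC and 0% in QSC with that q limit, and 0% in both with that fold limit. With narrow lists it was 3.87% in ASC and 0.676% in QSC. With equal covered bases it was 54.5% in ASC, and with equal numbers of peaks 21.2% in QSC. Coverage of the chromosome 2 cluster (79.6% in ASC, 74.0% in QSC) was 72.4% in ASC and 22.7% in QSC with the q limit, 38.0% and 1.56% with the fold limit, and 50.1% and 11.7% with narrow lists. A joining gap of 100 kb kept the Wfdc2 to Wfdc3 run, with 94.7% in ASC and 88.5% in QSC. Coverage of the whole chromosome 2 cluster was 79.3% in ASC with equal covered bases and 73.4% in QSC with equal numbers of peaks. The causes were not tested. Coverage in ASC was at or above that in QSC under each of these settings. Dropping Klk1 and the Klk1b genes, also chosen after seeing the data, left broad calls of 31 in ASC and 29 in QSC.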
